A study of Mus musculus with 36 samples.

Results

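The genes described here are 9 genes that mark macrophages or other myeloid cells, read in RNA from cultured enteric glial cells (EGCs). They are Itgam, Adgre1, Aif1, Csf1r, Cd68, Ptprc, Tyrobp, Fcer1g and Lyz2, and they were chosen by name as common macrophage genes, not by their values in a contrast. Earlier results of these data were known at that point, so the choice was not blind to them. All 9 had a row among the 43472 genes of the count table, of which 23121 had at least 1 count. Adgre1 was listed there under its older symbol, Emr1.

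The study grew EGCs from wild-type C57BL/6J embryos at E13.5, by way of neurospheres that were then differentiated in medium with serum, and asked how these glia respond to factors from a colorectal tumor. Cells were left unstimulated or received a conditioned medium: TME-CM was made from digested MC38 tumors grown in the colon wall, and H-CM from digested healthy colon. RNA was collected after 6, 12 or 24 h, with 4 libraries in each of the 9 groups (36 libraries), and 3′ mRNA sequencing gave 1 read count per gene and library. The neurospheres came from whole embryonic intestine, so the cultures were not sorted for glia, and the labels give replicate numbers without saying whether a number marks a separate culture or litter. P-values therefore measure the spread between these libraries, which may be technical.

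Macrophages are tissue phagocytes that in the gut wall lie close to enteric neurons and glia. Itgam encodes CD11b, the alpha chain of an adhesion and complement receptor, and Adgre1 encodes F4/80, a surface receptor used to identify mouse macrophages. Csf1r is the receptor for the growth factor CSF1, which macrophages need to survive. Tyrobp (DAP12) and Fcer1g (the Fc receptor gamma chain) are adaptors that carry signals from activating receptors, Ptprc encodes the pan-leukocyte phosphatase CD45, Aif1 encodes the actin-binding protein IBA1, Cd68 is a lysosomal glycoprotein and Lyz2 is the myeloid lysozyme.

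On GRCm38 (GENCODE M21) the 9 genes lie on 6 chromosomes, and all are protein coding. Itgam spans chr7:128062640-128118491 on the plus strand, and Lyz2 spans chr10:117277331-117282321 on the minus strand. Exons of Itgam share 3450 bases with Gm49368 on the same strand, and exons of Csf1r share 873 bases with Hmgxb3 on the opposite strand. Whether reads were counted by strand is not given in the sources used here, so the assignment of reads in those bases is uncertain. Lyz2 has a close paralog, Lyz1, which had between 0 and 17 counts per library.

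RefSeq promoter windows (GRCm38.p6, 250 bases before to 50 bases after the start) were at hand for 6 of the 9 genes. The letters GAGGAA, the core bound by the myeloid transcription factor PU.1, were searched on both strands. They were found in 4 of the 6 genes (Itgam, Aif1, Cd68 and 1 of the 2 windows of Ptprc) and not in the windows of Fcer1g and Lyz2, against 28.3% of all 32851 promoter windows. The first is a count of genes, of which Ptprc had 2 windows, and the second a share of windows, so the measures differ. The longer form GAGGAAGT, which contains the shorter one, was in none of the member windows and in 3.2% of all windows. The windows of Itgam (chr7:128062390-128062689, plus strand) and Lyz2 (chr10:117282223-117282522, minus strand) are shown. Over all libraries these genes had the highest median levels of the 9 genes. Capitals mark GAGGAA or its reverse complement, which in Itgam start at positions -84, -15 and 33 counted from the start site.
Itgam: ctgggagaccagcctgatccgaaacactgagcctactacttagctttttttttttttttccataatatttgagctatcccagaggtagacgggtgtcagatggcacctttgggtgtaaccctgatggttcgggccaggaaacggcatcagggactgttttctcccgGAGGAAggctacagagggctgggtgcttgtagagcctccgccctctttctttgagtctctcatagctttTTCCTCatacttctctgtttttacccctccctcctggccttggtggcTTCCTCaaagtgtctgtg
Lyz2: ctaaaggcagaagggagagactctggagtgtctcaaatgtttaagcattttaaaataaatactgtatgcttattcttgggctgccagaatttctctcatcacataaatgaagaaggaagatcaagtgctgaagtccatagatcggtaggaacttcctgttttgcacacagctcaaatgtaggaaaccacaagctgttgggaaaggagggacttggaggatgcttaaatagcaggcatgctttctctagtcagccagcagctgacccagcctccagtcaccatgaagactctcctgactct
These letters describe the windows and say nothing of binding in these cells.

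The glial label was checked against markers first. In the 24 libraries of 12 and 24 h, Sox10 lay between 57.1 and 91.8 CPM (read count scaled to library size) and S100b between 28.6 and 116.4 CPM. Total counts ran from 2005239 to 5961933 at 12 h and from 1608018 to 7552509 at 24 h, where 3 counts, taken as the upper limit of a count of 0, correspond to between 0.37 and 1.71 CPM. At 6 h they ran from 13518 to 5244763. The H-CM 6 h replicate 4 library held those 13518 counts and no count of any of the 9 genes, which allows up to 98.1 CPM, and unstimulated 6 h replicate 3 held 256453. The noncoding gene Yam1 took between 11.0% and 48.6% of the counts of a library. CPM here is scaled by trimmed mean of M values within each time point, and the intervals and limits cover counting error only.

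Each of the other 35 libraries had counts of at least 5 of the 9 genes, at a low level. Together the 9 genes took between 0.0072% (Wilson 95% interval 0.00655% to 0.00791%) and 0.0338% (0.0317% to 0.036%) of the counts at 12 h, and between 0.00649% (0.00591% to 0.00713%) and 0.0387% (0.037% to 0.0404%) at 24 h. These intervals do not overlap, so the spread between libraries exceeded counting error. In bulk RNA, fewer cells of a type and less RNA per cell cannot be told apart.

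Lyz2 made up 66.6% of all member counts (15909 of the 9 genes' counts) and its median over the 36 libraries was 95.2 CPM. The next medians were 12.5 CPM for Itgam, 11.2 CPM for Fcer1g and 8.42 CPM for Tyrobp. Cd68 (6.34 CPM), Csf1r (5.42 CPM), Ptprc (3.19 CPM) and Adgre1 (2.63 CPM) followed. A 3′ library yields about 1 tag per transcript, so these levels were not divided by length. Within each of the 24 libraries of 12 and 24 h Lyz2 was the highest of the 9 genes. Across libraries its range (from 35.6 CPM) met that of Itgam, and the ranges of the other 7 tested genes overlapped each other, from 4.14 to 58.2 CPM for Itgam at 12 h down to 0.457 to 10.4 CPM for Adgre1 at 24 h.

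Aif1 was barely detected. It had 41 counts in all, spread over 13 of the 36 libraries with at most 9 in one, and it did not pass the filter on low counts. The other 8 genes were tested in every comparison.

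**Figure D1:**
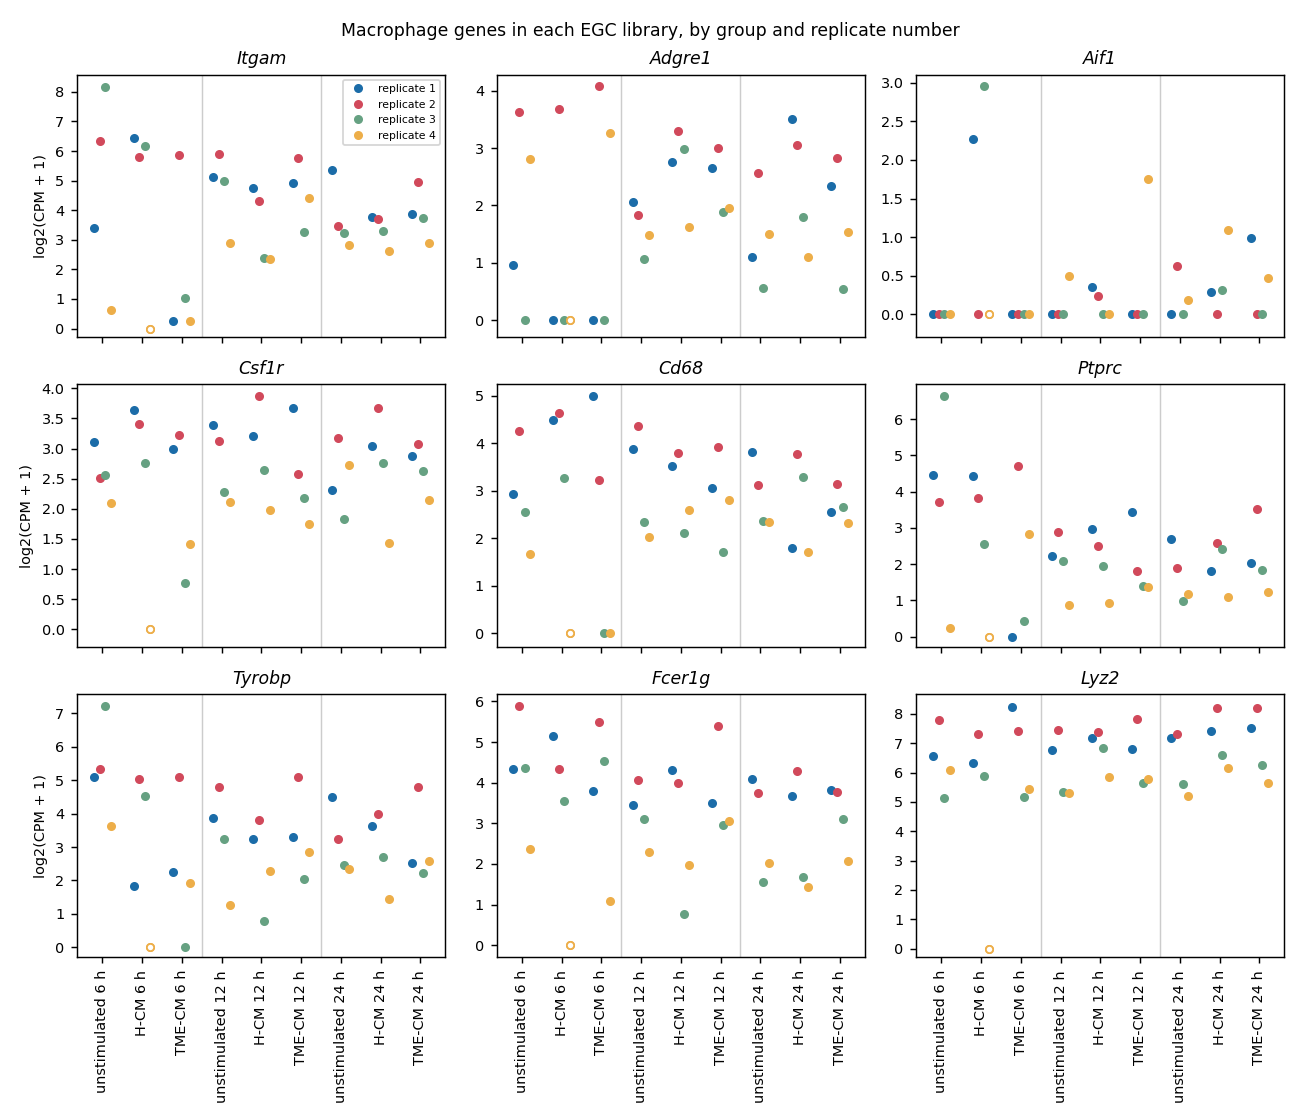
Level of each of the 9 macrophage genes as log2(CPM + 1) in each of the 36 libraries, by group (x axis) and coloured by the replicate number in the labels; the open point is the H-CM 6 h library with 13518 counts, where 0 allows up to 98.1 CPM. The 3 groups of a time point overlap for every gene, and at 12 and 24 h the Lyz2 points of replicates 1 and 2 lie above those of replicates 3 and 4 in each group.

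The first question was whether tumor-conditioned medium changed these genes at 24 h. None of the 8 tested genes was called in TME-CM against H-CM, TME-CM against unstimulated or H-CM against unstimulated EGCs (edgeR quasi-likelihood test, Benjamini-Hochberg adjusted p under 0.05 over 12713 genes). Over all genes these comparisons called 5.4%, 9.52% and 2.03%, and no member had an unadjusted p under 0.05 in any of them. The median log2 fold changes of the 8 genes were -0.05, 0.14 and 0.31, beside medians of all genes of 0.005, 0.004 and 0.002.

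Lyz2 at 24 h was 142.9, 156.9, 48.3 and 35.6 CPM in unstimulated replicates 1 to 4. It was 170.0, 293.5, 97.01 and 70.2 CPM with H-CM and 181.1, 290.5, 75.4 and 49.5 CPM with TME-CM. In each group replicates 1 and 2 were high and replicates 3 and 4 low, and the groups overlapped. Under each of the 4 replicate numbers the H-CM and the TME-CM library lay above the unstimulated one. The log2 difference from unstimulated EGCs was 0.74 ± 0.71 (SE, n = 4 per group, adjusted p = 0.837 in edgeR) for H-CM and 0.63 ± 0.71 (adjusted p = 0.762) for TME-CM. That of TME-CM against H-CM was -0.12 ± 0.71 (adjusted p = 0.967). With the replicate number as a block, edgeR called the Lyz2 differences of H-CM and of TME-CM from unstimulated EGCs. The labels do not say what a number marks, and each call was lost when certain single libraries were left out (closing section).

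Adgre1 at 24 h was 1.14, 4.91, 0.481 and 1.82 CPM in unstimulated EGCs, 10.4, 7.32, 2.46 and 1.14 CPM with H-CM, and 4.07, 6.11, 0.457 and 1.9 CPM with TME-CM. The highest levels lay in replicates 1 and 2 with H-CM, yet the H-CM range enclosed most of the others. The log2 difference of H-CM from unstimulated was 1.38 ± 0.73 (adjusted p = 0.548), the furthest from 0 of the 8 genes in that comparison. It did not exceed the replicate spread.

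Itgam at 24 h was 40.2, 10.01, 8.34 and 6.02 CPM in unstimulated EGCs, and its high value rested on replicate 1. It was 12.7, 11.9, 8.88 and 5.13 CPM with H-CM and 13.5, 29.7, 12.3 and 6.47 CPM with TME-CM. The log2 difference of TME-CM from H-CM was 0.56 ± 0.62 (adjusted p = 0.753). The adaptors Tyrobp and Fcer1g differed by 0.02 ± 0.80 and 0.01 ± 0.81 in the same comparison, and the intervals of 1 SE on either side cover shifts of well over 0.5 in both directions. Csf1r, the CSF1 receptor, ranged from 2.57 to 8.01 CPM in unstimulated EGCs, from 1.71 to 11.7 CPM with H-CM and from 3.43 to 7.42 CPM with TME-CM.

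At 12 h the groups overlapped again. None of the 8 genes was called in the 3 comparisons, which over all 12156 genes called 1.89% (TME-CM against H-CM), 4.41% (TME-CM against unstimulated) and 0.403% (H-CM against unstimulated). Only Adgre1 in H-CM against unstimulated EGCs had an unadjusted p under 0.05, and it did not survive adjustment (log2 1.48 ± 0.66, adjusted p = 0.832). Its levels were 3.15, 2.57, 1.09 and 1.8 CPM in unstimulated EGCs and 5.78, 8.78, 6.89 and 2.07 CPM with H-CM, so 3 of the 4 H-CM libraries lay above all unstimulated ones.

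Itgam at 12 h was 33.6, 58.2, 30.3 and 6.38 CPM in unstimulated EGCs, 26.1, 19.0, 4.28 and 4.14 CPM with H-CM and 29.1, 53.4, 8.67 and 20.2 CPM with TME-CM. Against unstimulated EGCs the log2 difference was -1.25 ± 0.77 (adjusted p = 0.965) with H-CM and -0.20 ± 0.75 (adjusted p = 0.973) with TME-CM. Lyz2 was 108.8, 172.8, 39.9 and 38.4 CPM in unstimulated EGCs, 143.8, 167.0, 112.7 and 56.6 CPM with H-CM and 109.9, 229.1, 49.5 and 53.4 CPM with TME-CM. Its log2 differences from unstimulated EGCs were 0.43 ± 0.62 with H-CM and 0.30 ± 0.62 with TME-CM, each smaller than its SE.

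**Figure D2:**
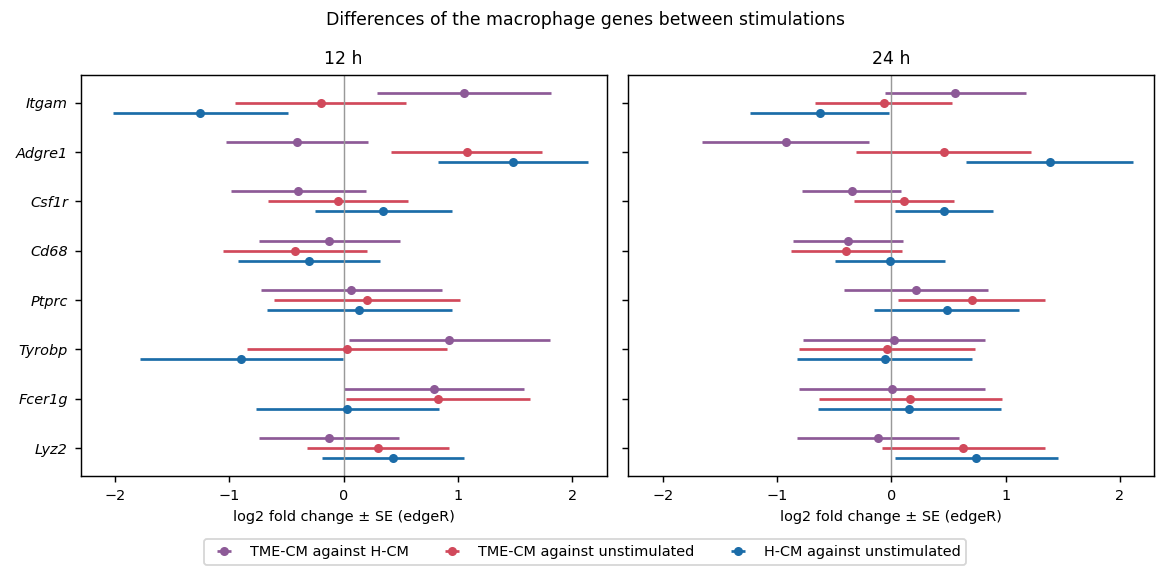
Log2 fold change of the 8 tested macrophage genes (points) with 1 SE on either side (bars) from edgeR in the 3 comparisons of stimulation at 12 h (left) and 24 h (right), with 4 libraries per group. No gene was called, and the largest differences, those of Adgre1 with H-CM against unstimulated EGCs (1.48 at 12 h and 1.38 at 24 h), have SEs of 0.66 and 0.73.

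At 6 h single libraries set the values. None of the 8 genes was called, where over 9256 genes TME-CM against H-CM called 0.0972%, TME-CM against unstimulated 0.454% and H-CM against unstimulated 0.0%. Itgam was 9.52, 80.7, 288.2 and 0.546 CPM in unstimulated EGCs, 86.6, 54.3 and 71.6 CPM in the first 3 H-CM libraries, and 0.2, 57.7, 1.054 and 0.187 CPM with TME-CM. The 288.2 CPM stood in the library with 256453 counts, where it rested on 59 reads, and that library also held the highest Tyrobp (146.5 CPM) and Ptprc (97.7 CPM) of the series but only 34.2 CPM of Lyz2. TME-CM replicate 1 had the reverse pattern, with 304.4 CPM of Lyz2 and 1 count of Itgam. Tyrobp in TME-CM against unstimulated EGCs had an unadjusted p under 0.05 (adjusted p = 0.748), and was called when TME-CM replicate 2 was left out, at a log2 difference of -4.53 (adjusted p = 0.0393). With both libraries under 500000 counts left out, none of the 8 genes was called in the 3 comparisons.

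Time after the medium change was compared for 12 and 24 h in 1 model of 24 libraries. None of the 8 genes was called between 24 h and 12 h in unstimulated EGCs, with H-CM or with TME-CM, where 0.0153%, 0.00763% and 0.626% of 13105 genes were. The change of the TME-CM against H-CM difference from 12 h to 24 h called no member and no gene (0.0%), with 436 genes at an unadjusted p under 0.05 and none of them a member. The median log2 change of the 8 genes from 12 h to 24 h was -0.43 in unstimulated EGCs, -0.26 with H-CM and -0.55 with TME-CM.

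The 4 replicate numbers separated the macrophage genes more than the stimulations did. This was noticed in the values and then tested on them, so the test describes these libraries and is no independent evidence. On the log2(CPM + 1) scale, the replicate number accounted for between 42.3% and 86.1% of the sum of squares of the 8 genes at 24 h (median 59.5%) and the stimulation for between 0.643% and 16.6% (median 5.14%). At 12 h the replicate number took between 36.4% and 87.4% (median 73.2%) and the stimulation between 0.195% and 43.6% (median 8.39%). The median over all genes with a mean of more than 5 counts was 20.7% for the replicate number at 24 h and 24.1% at 12 h. At 12 h Adgre1 was the exception, with 43.6% for the stimulation and 36.4% for the replicate number.

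In an edgeR test of the replicate number, with stimulation in the model, Lyz2 ranked 1 among 12713 genes at 24 h (F = 73.7, adjusted p = 3.34e-06) and 1 among 12156 genes at 12 h, where it missed the threshold (F = 21.1, adjusted p = 0.0766). Its 24 h call held in all 12 fits that left out 1 library, with adjusted p up to 0.000143. Lyz2 was the only member called at 24 h, where the test called 7 genes (0.0551%). Those were Lyz2, Ctss, Ddx3y, C3ar1, Laptm5, Kcnk3 and Ost4, named after their values were seen. Ctss (the lysosomal protease cathepsin S), Laptm5 (a leukocyte lysosomal protein) and C3ar1 (a complement receptor of myeloid cells) are known from myeloid cells. Ddx3y is a gene of the Y chromosome.

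Counted at an unadjusted p under 0.05, the replicate number passed for 6 of the 8 genes at 24 h (4.29% of all genes) and 7 of 8 at 12 h (3.97%), Adgre1 being the exception at 12 h and Csf1r and Cd68 at 24 h. At 6 h it passed for 4 of 8 (2.24% of all genes) and no gene was called (0.0%). At 12 h no gene was called either (0.0%).

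By replicate number, Lyz2 at 24 h averaged 164.7, 247.0, 73.6 and 51.7 CPM for replicates 1 to 4 over the 3 stimulations (n = 3 each). Ctss followed with 28.7, 45.6, 12.9 and 5.52 CPM. Ddx3y did not, with 34.2, 44.5, 57.5 and 11.7 CPM, so replicate 3 was its highest. The part of sex composition, culture or handling in this pattern was not tested, since the labels give none of them by replicate number.

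**Figure D3:**
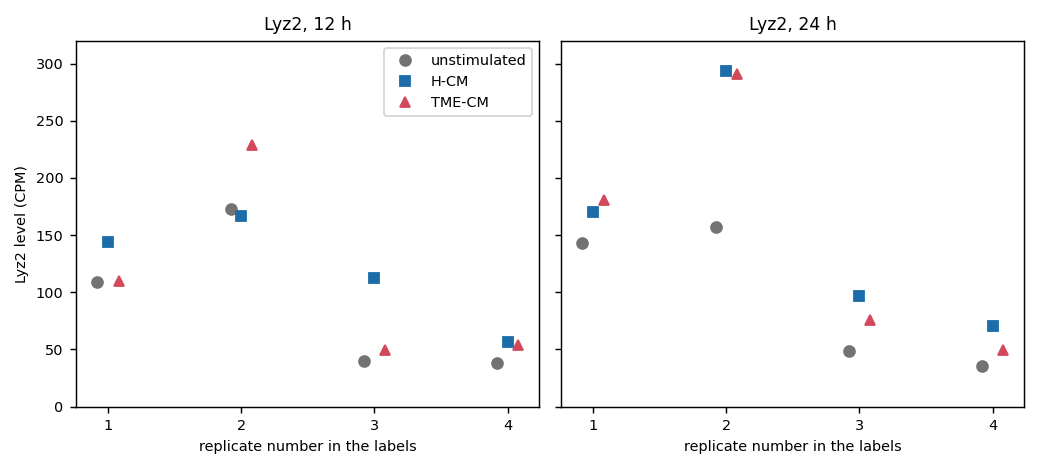
Lyz2 level (CPM, linear axis from 0) against the replicate number in the labels at 12 h (left) and 24 h (right), 1 point per library and stimulation. At 24 h replicates 1 and 2 lie between 142.9 and 293.5 CPM and replicates 3 and 4 between 35.6 and 97.01 CPM.

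The members did not all vary together. Over the 24 libraries of 12 and 24 h, whose points share a library's depth and scaling, all 28 pairs among the 8 tested genes had a Pearson r above 0 (from 0.23 to 0.85, median 0.66; log2(CPM + 1), given as a description). Itgam, Tyrobp and Fcer1g were closest to each other, with r of 0.85 for Itgam and Tyrobp (Spearman rho 0.84, and 0.79 without the 2 libraries farthest from the Itgam median), 0.83 for Tyrobp and Fcer1g and 0.80 for Itgam and Fcer1g. Lyz2 had no single closest member, with r of 0.71 to Adgre1 (rho 0.70), 0.71 to Ptprc (rho 0.68) and 0.68 to Fcer1g (rho 0.76), while Itgam and Adgre1 were the least alike pair (r = 0.23).

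The members also differed in how they followed genes that are not macrophage genes. Hemoglobin transcripts, chosen after their values were seen, were detected in most libraries, with Hbb-bt between 0 and 50.5 CPM at 12 and 24 h. Hbb-bt followed Itgam (r = 0.84, 0.94 at 12 h and 0.49 at 24 h) and Tyrobp (r = 0.84, 0.93 at 12 h and 0.71 at 24 h) but not Lyz2 (r = 0.28) or Adgre1 (r = 0.09). Its r was 0.68 with Fcer1g, 0.61 with Cd68, 0.41 with Ptprc and 0.26 with Csf1r. The share of counts taken by Yam1 followed Itgam as well (r = 0.88, and 0.84 on plain shares of the total counts), Tyrobp (r = 0.72) and Ptprc (r = 0.69) less closely, Lyz2 at r = 0.49 (0.63 at 12 h and 0.57 at 24 h) and Adgre1 at r = 0.32. The summed markers of mast cells and of lymphocytes, most of the latter under 1 CPM, followed Itgam too (r = 0.84 and 0.85). The sum of 26 other macrophage genes, described below, had r of 0.86 with Itgam (0.925 at 12 h and 0.82 at 24 h). With Tyrobp the r of that sum was 0.90, with Lyz2 0.81 and with Adgre1 0.55. The glial gene Sox10 had r of 0.03 with Itgam (0.20 at 12 h and -0.38 at 24 h) and 0.07 with Lyz2 (0.55 at 12 h and -0.44 at 24 h), so the times differed in sign. On plain shares of the total counts these were -0.51 with Itgam and -0.16 with Lyz2, so the scaling changed them. The summed enteric glia markers had r of -0.47 with Itgam, negative at 12 h (-0.555) and at 24 h (-0.366). With Lyz2 their r was 0.06. The part of these library measures in the members' levels was not tested.

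**Figure D4:**
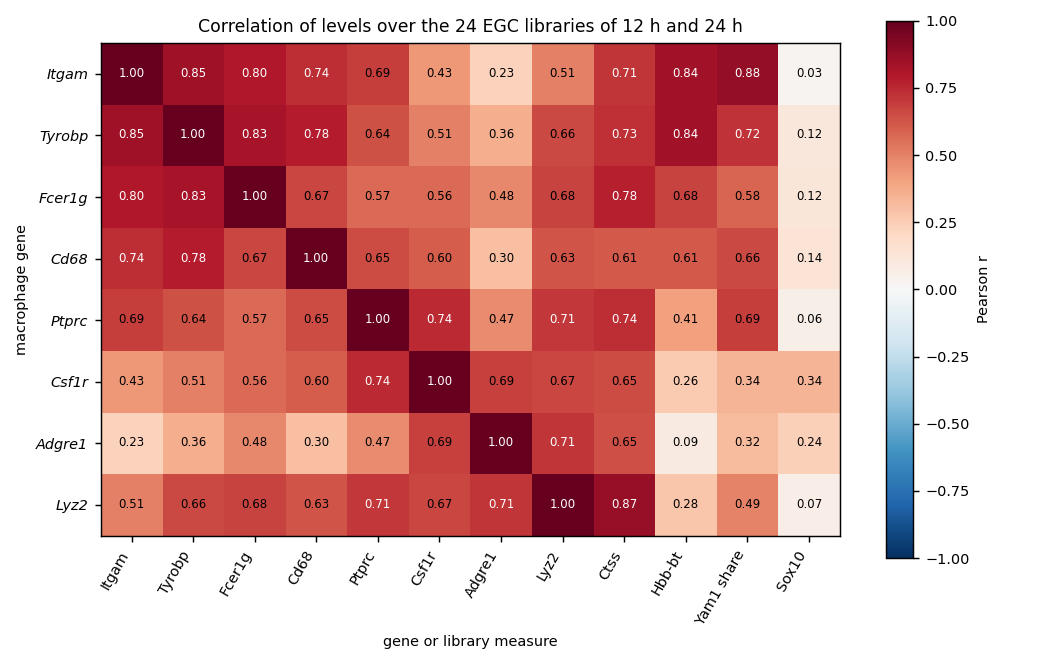
Pearson r of log2(CPM + 1) over the 24 libraries of 12 and 24 h between each of the 8 tested macrophage genes (rows) and the same genes, Ctss, Hbb-bt, the percentage of counts taken by Yam1 and Sox10 (columns). Itgam, Tyrobp and Fcer1g are close to each other (r from 0.80 to 0.85), and Hbb-bt follows Itgam and Tyrobp (0.84 each) but not Adgre1 (0.09).

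The 10 genes whose log2 CPM was most like the summed level of the 9 genes over these 24 libraries were Ctss (r = 0.92), Laptm5 (0.83), Ccl9 (0.81), Alox5ap (0.77), Clec4d (0.77), C1qc (0.77), Lilrb4 (0.74), Smpdl3a (0.73), Cd53 (0.73) and Ccl6 (0.72). Of these, 4 were on lists fixed here (Ctss, Laptm5, C1qc and Cd53, all on the list of other macrophage genes). The summed level is mostly Lyz2, so the likeness is mainly to that gene. With all 36 libraries none of the 10 stayed among the most alike, and without the 2 libraries under 500000 counts 4 did.

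A list of 26 other macrophage genes had 23 tested at 24 h. In TME-CM against unstimulated EGCs 3 of the 23 were higher and none lower, where 9.52% of all genes were called, and their median log2 fold change was 0.44 beside 0.004 for all genes. The 3 were Cd14, the lipopolysaccharide co-receptor, Msr1, a scavenger receptor, and Irf8, a myeloid transcription factor. Cd14 ranged from 4.36 to 9.27 CPM with TME-CM and from 0.28 to 1.92 CPM in unstimulated EGCs, which did not overlap (log2 2.69 ± 0.57, adjusted p = 0.00245), and it kept its call in all 8 fits that left out 1 library. A single model of all 36 libraries, the shallow 6 h ones included, ended the 24 h calls of all 3 genes. Msr1 (log2 1.78 ± 0.55, adjusted p = 0.042) and Irf8 (log2 1.39 ± 0.40, adjusted p = 0.0284) each lost the call in 4 of those 8 fits, with adjusted p up to 0.151 without TME-CM replicate 1 for Msr1 and up to 0.11 without TME-CM replicate 4 for Irf8. At 12 h 1 of 24 was called in this comparison, Irf8 (log2 2.05 ± 0.58, adjusted p = 0.0493), which lost the call in 7 of 8 such fits, with adjusted p up to 0.288 without TME-CM replicate 2. None of the list was called in TME-CM against H-CM or H-CM against unstimulated EGCs at 12 or 24 h, or in any comparison at 6 h. The 3 genes with the highest level on the list were Lcp1 (24.9 CPM on average at 12 and 24 h), Ctss (23.7 CPM) and Laptm5 (21.0 CPM).

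A list of 22 ligands, partners and signaling genes of the members had 11 tested at 24 h and 13 at 12 h. Csf1, the ligand of Csf1r, averaged 282.6 CPM (from 140.7 to 406.1) and was not called in any comparison, so the ligand was far more abundant than its receptor in every library of 12 and 24 h. Il34, the other ligand of Csf1r, averaged 2.11 CPM. Cd47, which binds the macrophage receptor SIRPa and restrains phagocytosis, was between 173.0 and 295.0 CPM with TME-CM at 24 h and between 83.2 and 115.0 CPM in unstimulated EGCs (log2 1.30 ± 0.23, adjusted p = 0.000773), with no overlap and no call lost over 8 fits that left out 1 library. At 12 h the same difference was 1.40 ± 0.25 (adjusted p = 0.00115). Against H-CM, Cd47 with TME-CM was higher by 1.06 ± 0.25 at 12 h (adjusted p = 0.0261) and 0.83 ± 0.22 at 24 h (adjusted p = 0.0382), but the groups overlapped and the call was lost in 5 and 6 of 8 such fits, with adjusted p up to 0.142 without TME-CM 12 h replicate 4 and 0.118 without TME-CM 24 h replicate 1.

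Sirpa itself was higher with TME-CM than in unstimulated EGCs at 24 h by 0.65 ± 0.20 (adjusted p = 0.0408), lost in 5 of 8 fits that left out 1 library (up to 0.169 without TME-CM replicate 3). Clec4n (dectin-2), a receptor that signals through Fcer1g, rose at 24 h with TME-CM (2.47 to 14.8 CPM) and with H-CM (3.42 to 17.2 CPM) from between 0.14 and 1.27 CPM in unstimulated EGCs. The log2 differences were 3.71 ± 0.77 (adjusted p = 0.00354) and 4.09 ± 0.76 (adjusted p = 0.00718), both kept in all 8 fits that left out 1 library but lost in the model of all 36 libraries. These 2 comparisons share the unstimulated libraries, where Clec4n had 13 counts in all. In all, 3 of 11 genes of the list were higher in TME-CM against unstimulated EGCs at 24 h, 1 of 11 in each of the other comparisons of 24 h, and none was lower. Over all genes 9.52% were called in the first, 5.4% in TME-CM against H-CM and 2.03% in H-CM against unstimulated EGCs, so a count of 1 of 11 is near the background.

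Markers of other blood cells were mixed. On the tissue-resident macrophage list 5 of 9 genes averaged under 1 CPM at 12 and 24 h, and Cd163 and Timd4 had 5 and 2 counts in all 36 libraries. Its most abundant gene, Pf4, was the chemokine of platelets and of some macrophages, and it was higher at 24 h with TME-CM (8.56 to 27.0 CPM) and H-CM (4.68 to 10.6 CPM) than in unstimulated EGCs (1.27 to 2.73 CPM), by 3.05 ± 0.40 (adjusted p = 1.04e-05) and 1.95 ± 0.41 (adjusted p = 0.0097). Cbr2, named after its values were seen, was the other gene called on the list, in TME-CM against unstimulated EGCs at 24 h (log2 4.69 ± 0.92, adjusted p = 0.00114, 54 against 2 counts). The summed level of this list was 6.58 to 9.1 CPM in unstimulated, 9.13 to 23.5 CPM in H-CM and 14.3 to 45.8 CPM in TME-CM EGCs at 24 h.

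In the model of all 36 libraries Cbr2, and Pf4 with H-CM, lost their calls.

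On the neutrophil list 6 of 10 genes averaged under 1 CPM and Csf3r had no count. Its most abundant gene, Mpo (9.75 CPM on average at 12 and 24 h), was not called in any comparison of stimulation. S100a8, an alarmin of neutrophils and monocytes, was between 13.7 and 36.6 CPM with TME-CM at 24 h. It was between 2.22 and 2.56 CPM with H-CM and at most 0.91 CPM in unstimulated EGCs. The log2 difference of TME-CM from H-CM was 3.33 ± 0.37 (adjusted p = 4.89e-06). Camp was the other gene called, in TME-CM against unstimulated EGCs (log2 3.07 ± 0.60, adjusted p = 0.0012). Both these calls were lost in the model of all 36 libraries. S100a8 was also higher with TME-CM than in unstimulated EGCs, which had 16 counts of it (log2 5.06 ± 0.42, adjusted p = 2.13e-08 in edgeR). That call was kept in the model of all 36 libraries and in all 8 fits that left out 1 library. The summed level of the list at 24 h was 6.86 to 11.6 CPM in unstimulated, 9.13 to 13.8 CPM in H-CM and 29.3 to 51.0 CPM in TME-CM EGCs. On the monocyte list 4 of 6 genes averaged under 1 CPM, among them Ccr2 and Ly6c2. The other 2, Plac8 and Vcan, were higher with TME-CM than in unstimulated EGCs at 24 h (log2 2.20 ± 0.30 and 1.70 ± 0.31, adjusted p = 0.000223 and 0.00282). Their summed list level was 342.5 to 447.2 CPM with TME-CM, 128.1 to 223.4 CPM with H-CM and 89.9 to 113.0 CPM in unstimulated EGCs. Plac8 and Vcan are not restricted to blood cells.

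No gene was called in any comparison on the lists for microglia (3 of 6 genes under 1 CPM, P2ry12 and Siglech with 2 and 1 counts), mast cells (2 of 7), lymphocytes (11 of 12) and dendritic cells (5 of 6, with no count of Xcr1, Clec9a and Cd209a). Genes that did not pass the filter on low counts could not be called. At 24 h Nkg7 was the only lymphocyte gene tested and Zbtb46 the only dendritic cell gene, so these lists say little.

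Markers of the other cells of the culture moved in the same comparisons. All 7 smooth muscle genes were lower at 24 h with TME-CM than in unstimulated EGCs, among them Acta2, the smooth muscle actin (log2 -1.91 ± 0.14, adjusted p = 2.83e-09), and Tagln, an actin-binding protein (log2 -1.46 ± 0.14, adjusted p = 1.92e-07). With H-CM 6 of the 7 were lower than in unstimulated EGCs, and 5 of 7 were lower with TME-CM than with H-CM. The summed level of this list was 7773 to 8958 CPM in unstimulated EGCs, 3591 to 4418 CPM with H-CM and 1864 to 2716 CPM with TME-CM. Of 6 fibroblast and mesenchyme genes, 2 were higher and 1 lower with TME-CM than in unstimulated EGCs, with the proteoglycan Dcn higher (log2 1.21 ± 0.13, adjusted p = 1.19e-06) and the collagen Col1a1 lower (log2 -0.43 ± 0.13, adjusted p = 0.045). Of 2 endothelial genes tested, Kdr, a VEGF receptor, was lower (log2 -1.61 ± 0.29, adjusted p = 0.00112). None of 7 neuron genes or of the 1 epithelial gene tested was called at 24 h. The part of these shifts in the levels of the macrophage genes was not tested.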

How the data were processed

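The deposited file holds raw read counts per gene symbol for 36 libraries of primary mouse EGCs. Per the labels and methods, the authors checked reads with FastQC 0.11.7, filtered adapters, aligned them to mm10 with HISAT2, handled alignments with SAMtools 1.5 and counted reads per gene with HT-seq, discarding reads that mapped to several places. The annotation and strand setting are not given in the sources used here. Counts were fitted with edgeR 4.0.16 (robust quasi-likelihood, trimmed mean of M values, filterByExpr with a minimum count of 10), in 1 model per time point (12 libraries) or 24 libraries for time, and p-values were adjusted over all genes tested. SE is the log2 fold change divided by the square root of F. DESeq2 1.42.0, other scalings, no filter, other sample sets, the replicate block and leaving out single libraries were tried. Levels are CPM. The fits were tested on simulated data. The members, lists and tests were chosen with earlier results of these data known. Named by rule were all members, at most the 3 genes of highest mean CPM of each other list, called genes of the other macrophage and partner lists, and the 10 genes of highest Pearson r with the summed member level (log2 CPM, prior count 2). All columns of the table were used. One gene of the glia markers is not reported here.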

Additional observations from a re-analysis of the deposited data

Results flagged for a closer look

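In 9 of the 81 combinations of gene and group, 1 of the 4 libraries lay far from the others by Dixon's test of the gap over the range, always on the high side. Chance gives this in about 1 in 20 groups of normally distributed values, which low counts of genes that vary together are not. Where the other 3 libraries are at 0, as for Aif1 and Adgre1 here, any count meets the criterion, and 1 of the zeros of Adgre1 is the library with 13518 counts. Replicate 2 of TME-CM was the library in 4 of the 9, with Itgam at 6 h (57.7 CPM against 1.054 for the next), Tyrobp at 6 h (33.4 against 3.8) and at 24 h (26.6 against 4.95), and Fcer1g at 12 h (41.4 against 10.3). The others were Itgam in unstimulated 24 h replicate 1 (40.2 CPM against 10.01), Adgre1 in H-CM 6 h replicate 2 (11.9 CPM, the others at 0), Ptprc in TME-CM 12 h replicate 1 (9.89 CPM against 2.49), and Aif1 in replicate 4 of unstimulated 12 h (0.416 CPM, 3 counts) and of TME-CM 12 h (2.36 CPM, 9 counts).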

How the results depend on the processing

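Depth limits the 6 h values most, and levels of a few CPM rest on few reads. Without the replicate block, members called in a comparison of stimulation numbered 0 except as follows. Without a filter on low counts the number was 1 in H-CM against unstimulated at 12 h (Itgam), and 1 in each of TME-CM and H-CM against unstimulated at 24 h (Lyz2). Over leave-one-out fits it ran from 0 to 1 in TME-CM against unstimulated at 6 h. For the replicate number, the members called were 1, 4 and 5 without a filter at 6, 12 and 24 h, 4 and 5 with the DESeq2 likelihood ratio test at 12 and 24 h, and 2 at each time with all 36 libraries in one model. Over leave-one-out fits they ran from 0 to 1 at 6 h, 0 to 1 at 12 h and 1 to 4 at 24 h. The shares of all genes called under these settings are not given here. The counts of members therefore do not show an excess over the background. The causes were not tested.

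Over genes with a mean of more than 5 counts, same-numbered libraries did not deviate together in every pair (correlations from -0.172 to 0.239). They were therefore not treated as paired. Single genes did follow the number, which at 24 h took 95.7% of the squares of Ddx3y and 86.1% of those of Lyz2. Fits without the block count that spread as error. Whether a number marks a shared culture was not tested. With the replicate number as a block, Lyz2 was called at 24 h in H-CM (log2 0.78 ± 0.15, adjusted p = 0.00676) and TME-CM (log2 0.59 ± 0.15, adjusted p = 0.0133) against unstimulated EGCs in edgeR, 1 member in each. Over all 12713 genes these block fits called 1.93% with H-CM and 9.15% with TME-CM. The H-CM call was lost without unstimulated replicate 3 (adjusted p = 0.0639) or H-CM replicate 3 (0.0595), and the TME-CM call without unstimulated replicate 2 (0.0636), 3 (0.0815) or 4 (0.0594). Itgam at 12 h had a log2 difference of -1.40 ± 0.45 with the block for H-CM against unstimulated EGCs (adjusted p = 0.548 in edgeR). For TME-CM against H-CM it was 1.24 ± 0.45 (adjusted p = 0.259), and neither was called. With the block and without TME-CM replicate 2, 1 member was called at 6 h in each of TME-CM against H-CM and TME-CM against unstimulated. The block ended the calls of Irf8 (adjusted p = 0.0641) and Cd47 against H-CM (0.0548) at 12 h and of Sirpa (0.0667) at 24 h. It also turned the sign of Tyrobp (-0.094) in TME-CM against unstimulated at 12 h, Ptprc (-0.0046) and Fcer1g (-0.39) in H-CM against unstimulated at 12 h, Itgam (0.10) in TME-CM and Fcer1g (-0.028) in H-CM against unstimulated at 24 h.

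Of 720 alternative values of the 48 member differences at 12 and 24 h, 83 changed sign, and all belonged to differences that were not called. Tyrobp in TME-CM against unstimulated at 24 h became 0.053 with DESeq2 and 0.030 in the model of all 36 libraries. Cd68 in H-CM against unstimulated at 24 h became 0.0029 without a filter and 0.0022 with only the groups compared. Leaving out 1 library turned others. For TME-CM against H-CM at 12 h, the log2 ranges were Csf1r -1.07 to 0.070, Cd68 -0.62 to 0.23, Ptprc -0.999 to 0.50, Tyrobp -0.13 to 1.53, Fcer1g -0.20 to 1.35, Lyz2 -0.76 to 0.12. For TME-CM against unstimulated at 12 h, the log2 ranges were Itgam -0.69 to 0.26, Csf1r -0.72 to 0.25, Cd68 -0.88 to 0.14, Ptprc -0.86 to 0.67, Tyrobp -0.99 to 0.74, Fcer1g -0.14 to 1.20, Lyz2 -0.30 to 0.83. For H-CM against unstimulated at 12 h, the log2 ranges were Csf1r -0.12 to 0.67, Cd68 -0.65 to 0.29, Ptprc -0.30 to 0.61, Fcer1g -0.52 to 0.45. For TME-CM against H-CM at 24 h, the log2 ranges were Csf1r -0.58 to 0.058, Cd68 -0.66 to 0.11, Ptprc -0.55 to 0.54, Tyrobp -0.99 to 0.44, Fcer1g -0.36 to 0.72, Lyz2 -0.64 to 0.37. For TME-CM against unstimulated at 24 h, the log2 ranges were Itgam -0.51 to 0.87, Csf1r -0.12 to 0.43, Cd68 -0.60 to 0.025, Ptprc -0.059 to 1.28, Tyrobp -1.05 to 0.67, Fcer1g -0.18 to 0.66. For H-CM against unstimulated at 24 h, the log2 ranges were Itgam -0.92 to 0.31, Cd68 -0.50 to 0.41, Tyrobp -0.47 to 0.66, Fcer1g -0.56 to 0.65.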
